A study of Cyprinus carpio 'koi' with 9 samples.

Results

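In the skin of Koi carp, 37 of 446614 assembled features were chosen because they were highest in white skin. The 3 colors of skin sequenced were black (BS), white (WS) and red (RS), with 3 libraries each, numbered 1 to 3 in every color, and 3 values given for a color are always in this order. The level used for the choice is scaled TPM, which is TPM (a transcript's share of the library per unit of its length) divided by the median TPM in that library of the 29750 features with an expected count of at least 10 in all 9 libraries. An expected count is the estimated number of read pairs from a feature. A feature was taken if it had an expected count of at least 10 in all 3 WS libraries, which 45986 features did, and if its scaled TPM plus 0.05 in WS was at least 2 times that in BS and in RS within each of the numbers 1, 2 and 3. A further 2 features that met these limits were left out by name. The 37 features were therefore picked by WS against BS and WS against RS, and the values of these contrasts are given as a description, without a test. The same limits applied to BS gave 33 of 39768 features, and applied to RS they gave 23 of 35480.

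All samples came from Koi carp of the FFRC strain whose skin carried black, white and red patches together, so a color is a patch of skin and not a genotype. The labels name no mutation, treatment or transgene, and all fish were kept at 24 °C. Read pairs of 150 bp were sequenced from poly(A) RNA of pieces of skin. The study took the skin of 3 fish, and libraries with one number probably come from one fish, although no source says so in words. Each value of bulk skin is a mixture, so fewer cells of a type and less RNA per cell cannot be told apart.

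The color of fish skin comes from pigment cells of the neural crest. Melanophores hold black melanin, xanthophores and erythrophores hold yellow to red pteridines and carotenoids, and iridophores reflect light from guanine platelets, which together with a lack of the dark and red cells gives a white or silvery look. The dermis and epidermis around them contribute structural, vascular, nervous and immune cells to a skin sample, as well as muscle where the cut is deep. The features described here are transcripts assembled from the reads, and most have no name, so their role in skin is mostly unknown. Their sequences were not used here.

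Depth overlapped between the 3 colors. The libraries of WS held 13773868 to 23058887 expected counts, those of BS 14812893 to 25002494 and those of RS 15242020 to 20643139. The median TPM used for scaling ranged from 1.13 to 3.28 over the 9 libraries, and the most abundant single feature took 1.1% to 41.1% of the TPM, with the highest share in BS2. Lists of muscle, pigment cell, retinoid, lipid, junction and immune features were made from terms in the study's annotation of features that it called on these same samples, so they are not independent. None of these 6 lists contained one of the 37 features. Of the 37, only TRINITY_DN148006_c0_g1 and TRINITY_DN157234_c1_g2 carry any term in that annotation, so this absence was nearly fixed in advance. The summed scaled TPM of the 36 muscle features was 75.7 to 99.7 in WS, 8.99 to 5618 in BS and 4.93 to 336 in RS, with 33, 33 and 20 features above 0, so WS lay inside the range of both other colors. For the 34 pigment cell features it was 9.99 to 28.1 in WS, 11.3 to 84.7 in BS and 11.1 to 30.1 in RS, and 28 of them were above 0 in WS against 32 in BS and 31 in RS. The 20 immune features had a median sum of 10.6 in WS, 24.6 in BS and 20.7 in RS, and every WS library was below every other library. The part of these other cells in the results below was not tested.

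The 37 features were mostly short, with a median level in WS above that of the features they were chosen from. Their mean scaled TPM over the 3 WS libraries ranged from 0.232 to 39.9 with a median of 1.57, against a median of 0.816 over the 45986 features with enough counts in WS. Their median length was 783 bp against 1351 bp. Of the 37, 20 (54.1%) came from the de novo assembly, against 43.2% of the 45986, and 17 from the genome-guided assembly. There were 14 (37.8%) that consisted of 1 transcript, against 31.7%. The summed scaled TPM of the 37 features was 8.94, 26.4 and 77.7 in BS, 9.86, 34.6 and 81.9 in RS and 69.8, 133 and 225 in WS. Within each number WS was the highest, as the choice of features requires, while number 3 of BS and RS exceeded number 1 of WS.

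**Figure D1:**
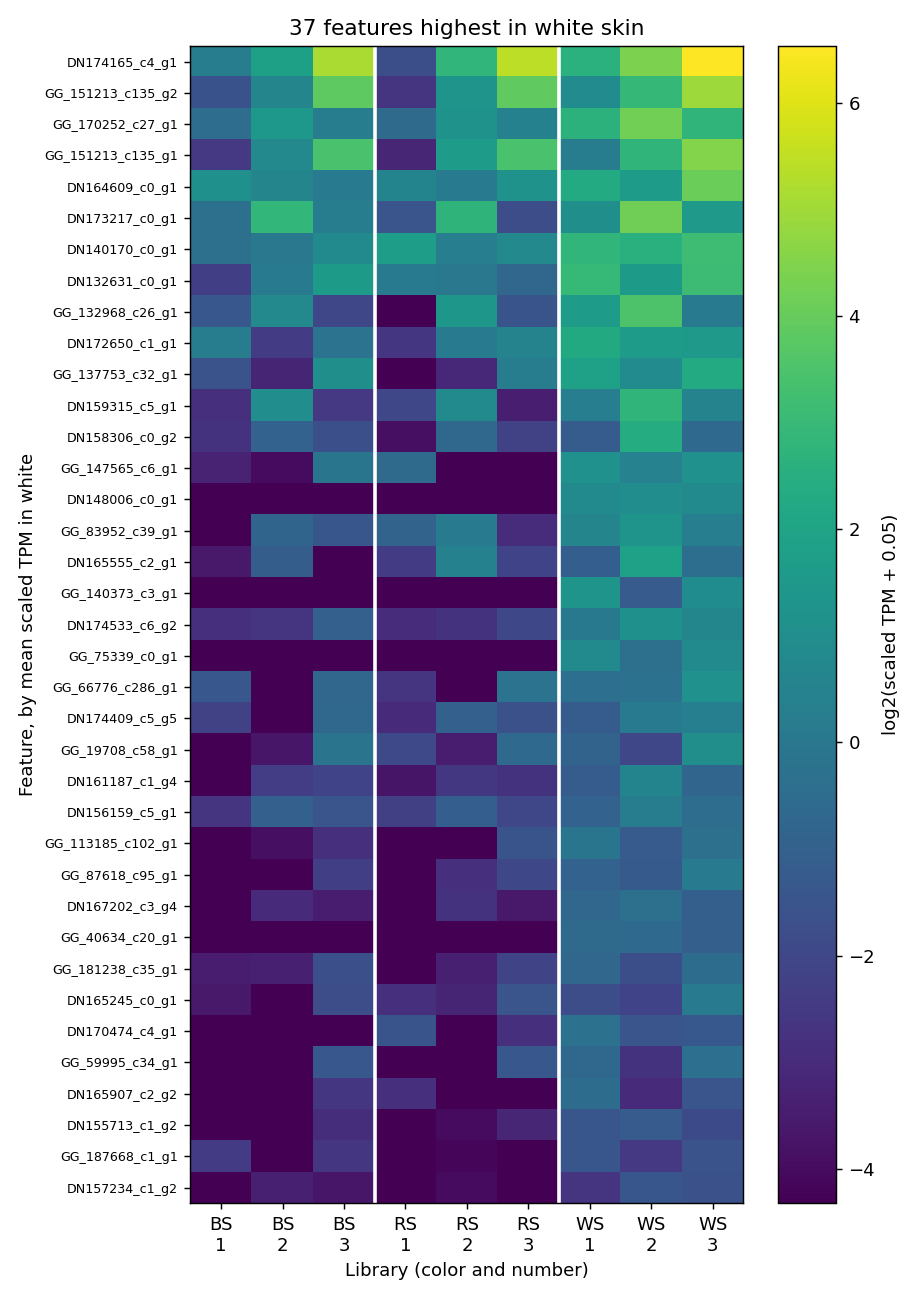
Heat map of log2(scaled TPM + 0.05) for the 37 features (rows, ordered by their mean in WS) in the 9 libraries (columns, BS, RS and WS, numbers 1 to 3). In each row the WS cell of a number is brighter than the BS and RS cells of the same number, by the choice of the rows, and DN174165_c4_g1 and both rows of GG_151213_c135 are bright in number 3 of all colors.

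In all, 4 features were found in white skin alone. Each had an expected count of at least 10 in all 3 WS libraries and exactly 0 in all 3 BS and all 3 RS libraries, and no other feature among the 45986 did. By the same measure 5 features were found in BS alone and 0 in RS alone. A count of 0 leaves room for a low level, because about 3 read pairs per library are needed to see a feature. The folds in the paragraphs on these 4 features are therefore lower bounds against 3 counts in each BS or RS library.

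TRINITY_DN148006_c0_g1 is the most even of the 4. The study's annotation places it under cilium assembly, the building of the microtubule-based cell projections that serve for movement or sensing. Its scaled TPM was 1.77, 1.94 and 1.7 in WS, with expected counts of 44, 82 and 55. It was 0 in every BS and RS library, so the colors did not overlap. The mean in WS was 1.8 ± 0.119 (SD, n = 3), and WS was at least 7.98-fold higher than the same-numbered BS or RS library in all 6 comparisons, with bounds up to 25.4-fold. The feature is 607 bp long and consists of 1 transcript. The term is the only hint of its role, and no other feature of the same assembly component was found with enough counts to compare.

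TRINITY_GG_140373_c3_g1 had scaled TPM of 2.41, 0.381 and 1.91 in WS, with expected counts of 57, 15 and 58. WS2 was the lowest of the 3, and the spread within white skin was large beside the mean, 1.57 ± 1.06 (SD, n = 3). Its bounds ranged from at least 3.36-fold to at least 22.5-fold higher than BS or RS, the lowest of them in number 2. TRINITY_GG_75339_c0_g1 had scaled TPM of 1.74, 0.765 and 1.79 with expected counts of 25, 16 and 33, and its bounds ranged from 3.45-fold to 12.7-fold. It was again WS2 that lay lowest, and both features are genome-guided, 588 bp and 470 bp long, and of unknown function. These 2 features and TRINITY_DN148006_c0_g1 are on the study's list of mRNAs that differ between RS and WS, which was drawn up from the same libraries.

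TRINITY_GG_40634_c20_g1 was lower, but more even than the last 2. Scaled TPM was 0.621, 0.601 and 0.432 in WS with expected counts of 29, 52 and 26, a mean of 0.551 ± 0.103 (SD, n = 3). The bounds were at least 5.19-fold to at least 16.4-fold over BS and RS. It is 881 bp long, of 1 transcript, and without annotation. In all 4 features effective length, the length available to reads after correction for fragment size, in BS and RS was 0.916 to 1.03 times that in the same-numbered WS library.

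**Figure D2:**
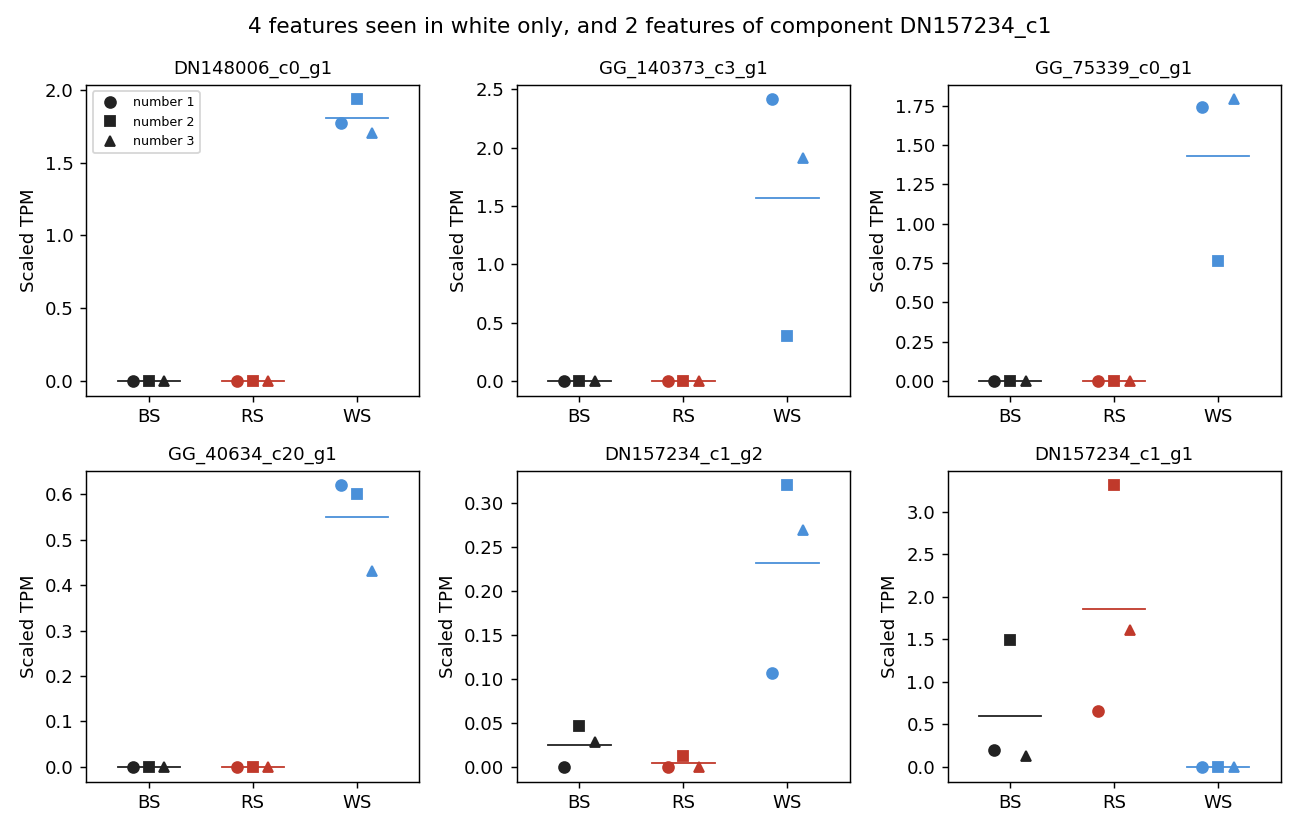
Scaled TPM (vertical axis, linear, each panel with its own scale) in the 9 libraries for the 4 features found in WS only and for 2 features of component DN157234_c1. Points are libraries, shapes mark the library number, and short lines are group means. In the first 4 panels every BS and RS point is at 0, while in the last 2 panels the feature that is present in WS and the one that is absent from WS lie in opposite order.

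Annotation was found for few of the 37 features. The study's tables place 4 of them under a term and list 4 as mRNAs that differ between colors, 6 features in all, and 31 have neither. None of the 37 was in the parts of the lncRNA lists that were read. A pair of the 4 terms comes from features that the study selected for their correlation with lncRNAs in these libraries.

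TRINITY_DN157234_c1_g2 carries the terms 3-dehydroquinate synthase activity and chorismate biosynthetic process. This enzyme turns a sugar phosphate into a ring-shaped acid in the shikimate route of bacteria, fungi and plants, a route that animals lack, and a related enzyme of zebrafish takes part in making gadusol, a compound that absorbs ultraviolet light. The annotation does not say which of these the feature resembles most. Its scaled TPM was 0.106, 0.32 and 0.269 in WS, 0, 0.0462 and 0.0284 in BS and 0, 0.0128 and 0 in RS. All WS libraries were above all BS and RS libraries, but its mean of 0.232 ± 0.112 (SD, n = 3) was the lowest of the 37. The read pairs behind it were 14, 81 and 36 in WS, 0, 5 and 6 in BS and 0, 3 and 0 in RS, and the smallest of its 6 ratios was 3.13 on scaled TPM and 3.88 on counts without length.

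A second feature of the same assembly component, TRINITY_DN157234_c1_g1, went the other way. It is annotated to melanogenesis, melanocyte differentiation and transcription factor activity, among other terms. Its scaled TPM was 0.196, 1.49 and 0.123 in BS, 0.655, 3.31 and 1.61 in RS and 0 in all 3 WS libraries. Every RS library and every BS library exceeded every WS library, and its counts reached 455 in RS2. Trinity groups contigs that share sequence into components, and the part of shared reads in this opposite order was not tested.

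TRINITY_DN167202_c3_g4 is annotated to scavenger receptor activity. Scavenger receptors are cell-surface proteins that bind lipoproteins, dying cells and microbes, and the annotation does not give the class. Its scaled TPM was 0.55, 0.753 and 0.441 in WS, 0, 0.0751 and 0.0379 in BS and 0, 0.103 and 0.0335 in RS, so the colors did not overlap. Read pairs numbered 15, 34 and 15 in WS and at most 6 elsewhere. The smallest ratio was 5.26, or 2.41 on counts. A neighbor of the same component, TRINITY_DN167202_c3_g2, had 0.255, 0.5 and 0.531 in WS against 0.575, 0.74 and 0.707 in BS, and its ratios of WS to the other colors were 0.488 to 1.78.

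TRINITY_DN140170_c0_g1 is annotated to ATP-dependent RNA helicase activity, the unwinding of RNA with energy from ATP. White skin had scaled TPM of 7.08, 5.9 and 8.85 in WS, black skin 0.754, 0.977 and 1.7 in BS and red skin 3.25, 1.2 and 1.66 in RS. These levels rest on very few reads, with 12, 11 and 19 read pairs in WS and 1 to 4 in each other library. Its effective length was only 10.7 to 26.8 bp, and a short effective length turns a few reads into a large TPM. On counts without length its smallest ratio was 1.52. In 7 of the 37 features effective length was under 100 bp in at least 1 library, and in 3 of them under 50 bp.

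Among the 4 features with the highest means in WS, 3 were highest in number 3 of every color. TRINITY_DN174165_c4_g1 had scaled TPM of 6.11, 21.2 and 92.5 in WS, 1.14, 3.51 and 36 in BS and 0.257, 6.98 and 43.4 in RS. Within a number WS was the highest, by ratios of 2.13 to 20.1. Across numbers the colors overlapped, since BS3 and RS3 exceeded WS1 and WS2. The mean of 39.9 ± 46.1 (SD, n = 3) shows how wide the spread within white skin was.

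TRINITY_GG_151213_c135_g2 followed the same order, with 1.82, 7.54 and 30.7 in WS, 0.285, 1.5 and 14.1 in BS and 0.106, 2.4 and 14.7 in RS. TRINITY_GG_151213_c135_g1, from the same component, had 1.11, 6.9 and 22.6 in WS, 0.123, 1.66 and 10.6 in BS and 0.0619, 3.12 and 10.7 in RS. Number 3 was the highest and number 1 the lowest in all 3 colors for all 3 features. Over the 9 libraries, Pearson's r of log2(scaled TPM + 0.05) between them was 0.978 to 0.995 (a description, since libraries of one number were taken as paired). The last 2 share a component, and whether the sequences of the 3 overlap was not tested, so they are not counted as independent. Their smallest ratios on counts, 2.00 to 2.14, were close to those on scaled TPM.

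**Figure D3:**
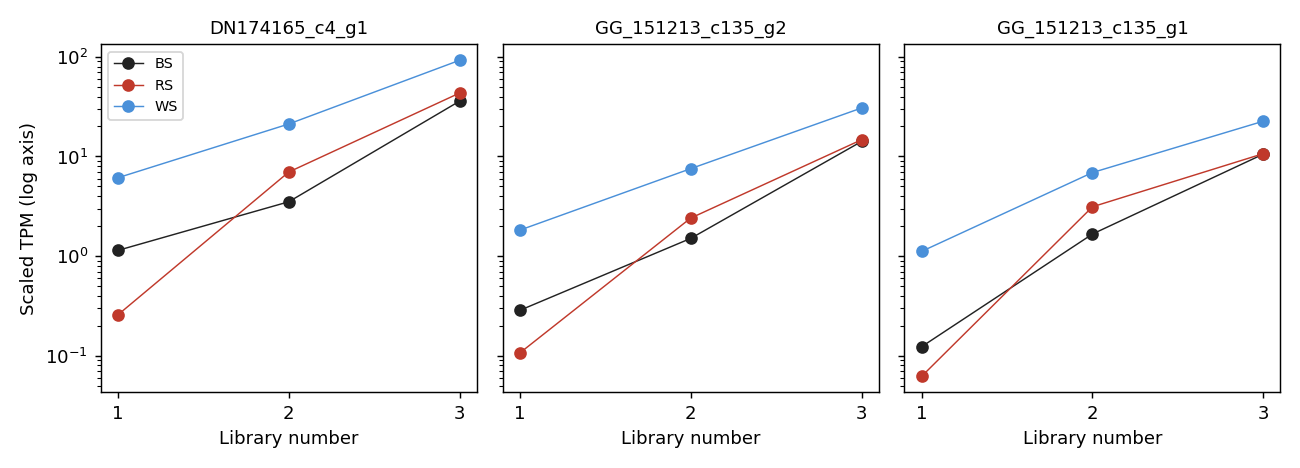
Scaled TPM (log axis) against library number for the 3 most alike abundant features, with BS, RS and WS as lines joining their libraries. In each panel number 3 is the highest in all 3 colors, while the WS line lies above the BS and RS lines at each number.

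Another group of features was highest in number 2 of every color. TRINITY_DN173217_c0_g1 had scaled TPM of 2.1, 17.9 and 2.83 in WS, 0.76, 7.32 and 1.13 in BS and 0.319, 6.58 and 0.249 in RS, so BS2 and RS2 were above WS1 and WS3. TRINITY_GG_132968_c26_g1 had 3.13, 11.2 and 1.07 in WS, 0.335, 1.65 and 0.199 in BS and 0, 2.61 and 0.301 in RS, with ratios of 3.19 to 63.6. The 63.6 was against the RS value of 0 and depends on the offset. TRINITY_DN159315_c5_g1 had 1.18, 6.76 and 1.4, 0.0894, 1.94 and 0.123 and 0.195, 1.79 and 0.0446 in the same order of colors. In all 3, number 2 was the highest library of each color. The same order was found in further members, such as TRINITY_GG_170252_c27_g1 and TRINITY_DN158306_c0_g2, so it is not particular to these 3. Among the 3 features the smallest ratio in counts stayed above 2 for TRINITY_GG_132968_c26_g1 alone, at 3.35, against 0.937 for TRINITY_DN173217_c0_g1 and 1.58 for TRINITY_DN159315_c5_g1.

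The highest WS library was number 1 for 8 of the 37 features, number 2 for 14 and number 3 for 15. Over all features with enough counts in WS it was number 1 for 30.5%, number 2 for 37.7% and number 3 for 31.7%. The ratio of the highest to the lowest WS library had a median of 2.98 (range 1.14 to 20.3), against 2.53 for all features with enough counts in WS. The highest BS library was number 3 for 19 features. The median ratio of WS over BS was 8.45 in number 1, 6.42 in number 2 and 3.28 in number 3, and that of WS over RS was 7.38, 3.71 and 4.05. The ratio that came closest to the limit was in number 3 for 19 features, 12 of them against BS. In 6 features BS and RS were both below 0.1 in numbers 1 and 2 and both above 0 in number 3. For these counts on BS, on RS and on the closest ratio, the shares over all features were not computed. Nothing is read from them about the 37.

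For 13 of the 37 features, 35.1% against 6.4% of all 45986, effective length in some BS or RS library was at least 2 times that in the same-numbered WS library. The choice of the 37 used TPM and so favors such features. TPM divides reads by this length, which RSEM estimates from the mix of transcripts it assigns, so a shorter effective length raises TPM at an equal number of reads. TRINITY_GG_170252_c27_g1 shows it most clearly. Its scaled TPM was 6.22, 18.5 and 6.85 in WS, 0.693, 2.72 and 1.11 in BS and 0.628, 2.31 and 1.32 in RS, without overlap. Its read pairs were 227, 559 and 322 in WS, 83, 647 and 272 in BS and 57, 744 and 245 in RS, where the colors overlap. Effective length was 4.4 to 11.1 times longer in BS and RS than in WS. The smallest ratio was 5.03 on scaled TPM and 0.598 on counts without length.

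TRINITY_DN174533_c6_g2 and TRINITY_DN164609_c0_g1 also had a longer effective length in all 6 comparisons, by 2.56 to 20.1 times and by 2.15 to 11.6 times. TRINITY_DN174533_c6_g2 had scaled TPM of 0.986, 2.16 and 1.55 in WS against 0.0796 to 0.448 elsewhere, and 32, 68 and 64 read pairs in WS against 17, 47 and 56 in BS and 10, 61 and 65 in RS. TRINITY_DN164609_c0_g1 had 4.85, 3.09 and 17.1 in WS against 1.04 to 2.29 elsewhere, with 203, 378 and 361 read pairs in WS and 146, 394 and 385 in RS. Both were separate on scaled TPM, and in both the read pairs overlapped between colors.

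TRINITY_DN172650_c1_g1 had scaled TPM of 4.8, 3.17 and 2.84 in WS and 0.115 to 1.38 elsewhere, but 86, 194 and 21 read pairs in WS against 177, 35 and 131 in BS, and its smallest ratio on counts was 0.105. TRINITY_DN161187_c1_g4 had 0.39, 1.45 and 0.534 in WS and 0 to 0.18 elsewhere, with 15, 12 and 105 read pairs in WS and a smallest ratio on counts of 0.466. TRINITY_DN158306_c0_g2 had 0.39, 5.16 and 0.602 in WS against 0.0177 to 0.564 elsewhere, led by WS2, where its read pairs were 104 against 85 in BS2 and 128 in RS2. TRINITY_GG_83952_c39_g1 had 1.47, 2.38 and 1.18 in WS and 0 to 1.11 elsewhere, with a smallest ratio on counts of 0.905. In these 4 the white level was higher on the TPM scale in each number, but not on scaled counts in each number.

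On expected counts divided by each library's median count, with no length, 18 of the 37 features were at least 2 times higher in WS in all 6 comparisons, 11 had a smallest ratio between 1 and 2 and 8 fell under 1. All 37 were chosen for a ratio of at least 2 on scaled TPM, which is counts over effective length. A low ratio on counts therefore goes by arithmetic with a longer effective length in BS or RS. Where read pairs are few, the offset also pulls a ratio above 1 toward 1. Nothing is read from the relation to effective length. Of the 13 with a longer effective length 1 reached 2 on counts, and of the 24 others 17 did. The 14 features with 1 transcript, in which effective length cannot follow a switch of transcripts, had smallest ratios on counts of 1.64 or more, and 9 of them reached 2. This too follows from the choice on scaled TPM, since their effective length was nearly equal in same-numbered libraries. Those under 2 can fall there by the offset, which weighs more where read pairs are few. Nothing is read from these ratios. The counts without length were looked at after the effective lengths had been seen. The part of transcript mix in the levels in skin was not tested.

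**Figure D4:**
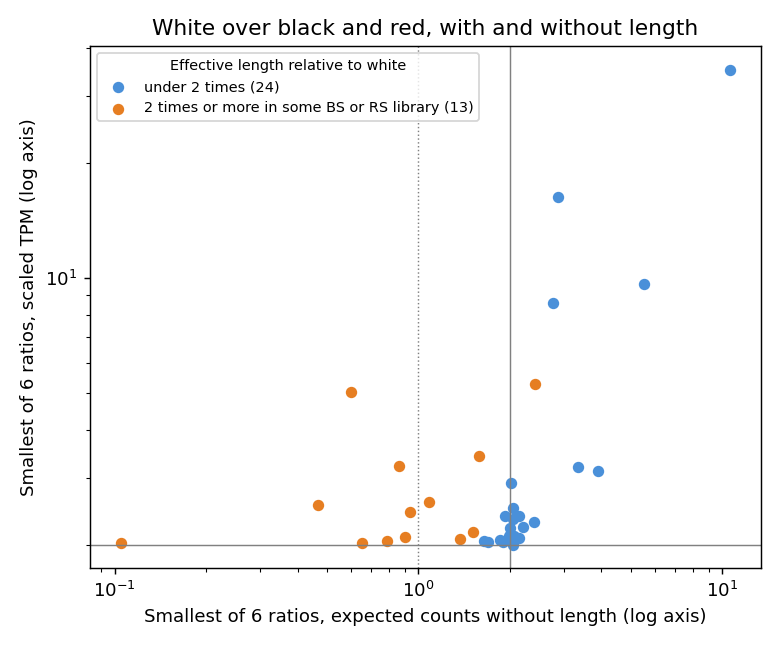
Smallest of the 6 within-number ratios of WS over BS or RS, on scaled TPM (vertical, log axis) and on expected counts without length (horizontal, log axis), for the 37 features, colored by whether effective length was at least 2 times longer in some BS or RS library than in WS. Grey lines mark ratios of 2, and the dotted line a ratio of 1. There are 8 points left of the dotted line, and since every point lies at 2 or more on the vertical axis by choice, their longer effective length follows by arithmetic.

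TRINITY_DN132631_c0_g1 had scaled TPM of 7.74, 2.95 and 8.66 in WS and 0.151 to 3 elsewhere, resting on 12, 38 and 11 read pairs in WS and an effective length of 12.4 to 131 bp. TRINITY_GG_137753_c32_g1 had 3.63, 1.85 and 4.87 in WS and 0 to 2.06 elsewhere on 20, 12 and 34 read pairs in WS, with an effective length of 33.4 to 74.7 bp. In both the colors overlapped, BS3 being above WS2. The 13 of the 37 that the naming rule does not take had mean scaled TPM of 0.31 to 1.92 in WS, with 11 to 300 read pairs per WS library. Their smallest ratios lay between 2.04 and 2.91 and their largest between 3.27 and 44.8, 12 of them were at 0 in at least 1 BS or RS library, and 6 were without overlap between WS and the other colors. The 44.8 was against a value of 0 and depends on the offset.

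The limit of 2 cuts through a continuous range. The smallest ratio had a median of 2.30 and ranged from 2.01 to 35.1, with 23 features under 2.5 and 6 above 5. The 35.1, of TRINITY_DN148006_c0_g1, was against values of 0 and depends on the offset, while its lower bound was 7.98. All 4 features found in WS alone are among the 6, and their ratios depend on the offset in the same way. TRINITY_GG_170252_c27_g1, also among the 6, had a smallest ratio of 0.598 on counts. There were 12 features between 2 and 2.1, and 10 features that were not taken lay between 1.9 and 2. Just inside were TRINITY_GG_187668_c1_g1 with a ratio of 2.01, TRINITY_DN164609_c0_g1 with 2.02 and TRINITY_GG_59995_c34_g1 with 2.02. TRINITY_GG_187668_c1_g1 had scaled TPM of 0.319, 0.122 and 0.29 in WS, 0.134, 0 and 0.114 in BS and 0, 0.0064 and 0 in RS. TRINITY_GG_59995_c34_g1 had 0.571, 0.101 and 0.728 in WS, with 0.334 in BS3, 0.331 in RS3 and 0 in the remaining BS and RS libraries. Just outside were TRINITY_GG_52204_c18_g1 at 1.99, TRINITY_GG_84192_c1_g1 at 1.99 and TRINITY_GG_155915_c32_g1 at 1.98. TRINITY_GG_52204_c18_g1 had 0.798, 1.45 and 2.56 in WS and up to 1.26 elsewhere. TRINITY_GG_84192_c1_g1 had 0.22, 0.256 and 0.605 in WS and up to 0.104 elsewhere, and TRINITY_GG_155915_c32_g1 had 0.33, 0.277 and 1.31 and up to 0.571, so of the 3 outside only TRINITY_GG_84192_c1_g1 was without overlap.

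In 19 of the 37 features all 3 WS libraries were above all 6 other libraries, and in 18 they were not. Over all 45986 features with enough counts in WS, 277 (0.602%) separated in this way, but the choice of the 37 used the same values and nothing is read from the difference. A count of 0 was found in at least 1 BS or RS library for 24 features, and 13 were above 0 in all 6. The lowest WS library had fewer than 20 read pairs in 20 of the 37, and the lowest of all was 11, so many of these ratios carry a large counting error. Of the 37, 11 share an assembly component with other features of enough counts, 18 in all. Of these 18, 2 were higher in WS than in BS and RS in every number, and they are the pair TRINITY_GG_151213_c135_g1 and TRINITY_GG_151213_c135_g2, both among the 37.

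Red against black skin is a comparison that the choice of features did not make directly. The choice did hold BS and RS of each number under a limit set by WS, which restricts how far they can differ. The comparison asks whether the counts of these features, with no length, differ between the 2 other colors. It was fitted with edgeR's quasi-likelihood test over all 65727 features with enough counts in BS and RS, and a call needs a Benjamini-Hochberg FDR no higher than 0.05 with a log2 fold change of 1 or more in size. Of the 37 features, 14 had enough counts to be tested and 23 had too few in these colors. The 8 features whose smallest ratio on counts without length fell under 1 were all among the 14. On the measure tested these 8 were therefore not higher in WS in every number. Differences in effective length between BS and RS do not enter the fit. None of the 14 was called (0 of 14), as was none of the 65727 features (0.0%). At an unadjusted p under 0.05 there were also 0 of the 14, and 216 of all 65727 (0.329%), while DESeq2 called 0 of the 14 and 33 of all features. With the library number as a block edgeR called 0 of the 14 and 0 of all features, and at an unadjusted p under 0.05 there were 0 of the 14 and 1247 of all (1.9%). With all 9 libraries in one fit 35 of the 37 passed the filter, but 21 of these passed only through WS, where they are high by choice. In that fit 0 were called and 2 of the 35 had an unadjusted p under 0.05, against 639 of 78848 (0.81%), and both, TRINITY_DN170474_c4_g1 and TRINITY_GG_187668_c1_g1, had too few counts in BS and RS for the fit of these colors alone, so nothing is read from them. Among the 14, 9 were higher in RS and 5 in BS. Their median log2 fold change was 0.07, against -0.02 over all features tested.

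In the fit without a block, the fold changes of single features were smaller than their errors. Among those higher in RS, the smallest p was that of TRINITY_DN164609_c0_g1, with a log2 fold change of 0.31 (standard error 0.47, edgeR unadjusted p = 0.531) and scaled TPM of 1.45, 1.09 and 2.29 in RS against 2.1, 1.5 and 1.04 in BS. TRINITY_GG_83952_c39_g1 followed with 0.68 (standard error 1.47), TRINITY_DN174533_c6_g2 with 0.23 (0.67) and TRINITY_GG_132968_c26_g1 with 0.42 (1.55). Among those higher in BS, TRINITY_DN172650_c1_g1 came first with a log2 fold change of -0.57 (standard error 1.18, edgeR unadjusted p = 0.645), its read pairs being 177, 35 and 131 in BS and 14, 27 and 219 in RS. TRINITY_DN158306_c0_g2 had -0.31 (1.19), TRINITY_DN161187_c1_g4 had -0.22 (1.39) and TRINITY_DN173217_c0_g1 had -0.08 (0.87). The adjusted p was 1 for all 14. These errors are wide, so the test without a block leaves room for sizable differences between red and black skin in most of these features. With the library number as a block the error was smaller for each of the 14 except TRINITY_DN174409_c5_g5, at 1.79 against 1.47. For TRINITY_DN174165_c4_g1 it was 0.41 with the block against 1.66 without, and for TRINITY_GG_170252_c27_g1 0.23 against 0.73. Part of the width therefore goes with leaving the library number out of the fit. The order of features given above also belongs to the fit without a block. With the block TRINITY_DN158306_c0_g2 had -0.90 (standard error 0.65) and TRINITY_DN172650_c1_g1 -0.82 (0.90). Across all 37, 2 were higher in RS than in BS in every number on scaled TPM, 2 were lower in every number, and 33 were mixed or tied. The shares over all features were not computed, and 24 of the 37 were at 0 in at least 1 BS or RS library. Nothing is therefore read from these counts.

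**Figure D5:**
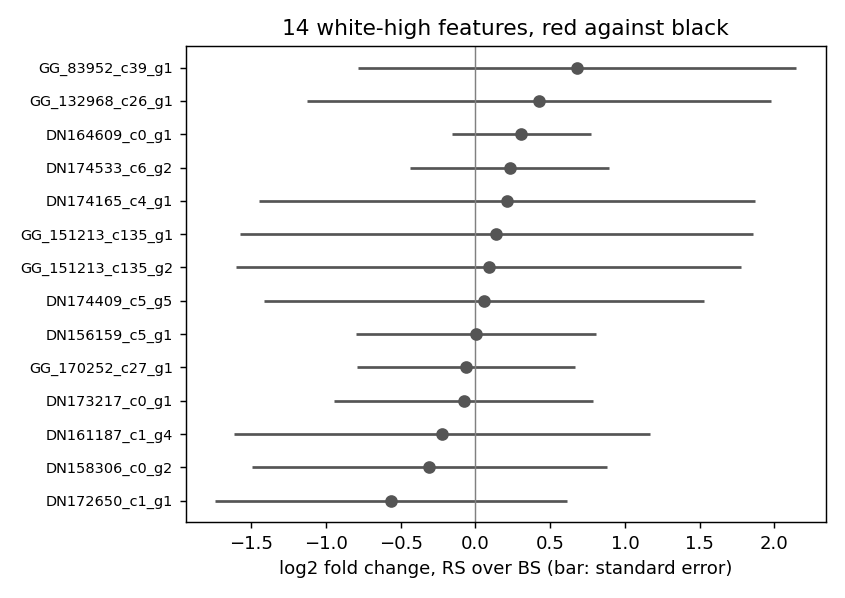
Log2 fold change of RS over BS in expected counts for the 14 features with enough counts (points, with bars of 1 standard error). Values are from edgeR's quasi-likelihood test without a block on 3 libraries per color. Points lie between -0.57 and 0.68, and every bar crosses 0.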

How the data were processed

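Skin RNA of 3 colors was measured in 9 libraries, grouped and numbered from the sample labels. The authors mapped reads with TopHat2 2.0.10, assembled them with Trinity and estimated expression with RSEM (1.2.21 in the submitters' processing notes, while the paper names another version). The expected counts deposited by the authors are RSEM estimates of read pairs per feature, not normalized and not whole. The deposited TPM values divide counts by effective length and sum to a fixed total per library. Each table holds 1 library. The deposited FPKM values were not used here.

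Scaled TPM, the offset of 0.05 and the limit of 2 follow the rule given in the report. The same offset was added to scaled counts in the ratios without length. The features and lists were chosen with earlier results of these data known. Named features were the 12 highest in WS, the 8 with the largest smallest ratio, all annotated ones, the 4 with the smallest p in each direction of RS against BS, and the 3 on either side of the limit. For RS against BS, expected counts were rounded, filtered by filterByExpr (minimum count 10) and tested with edgeR 4.0.16 (TMM, glmQLFit, glmQLFTest, no block) in R 4.3.3. Each standard error was derived from the log2 fold change and the test's F. The study names 3 fish, but no source ties a library to a fish, so p-values measure the spread between libraries. Same-numbered libraries deviated together (Pearson's r of deviations from the color means 0.49 to 0.748 over 9 pairs, against -0.539 to 0.00491 over 18 other pairs). Deviations sum to 0 within a color, so the low values of the other pairs follow by arithmetic and add no evidence. The numbers were taken as pairing the samples because of the first range, and what same-numbered libraries share was not tested. Alternatives were other offsets, counts, folds and scalings, the replicate block, DESeq2 1.42.0, RLE factors, no filter, all 9 libraries in one fit, and leaving out replicates. The floor of 3 counts covers counting error only, while standard deviations and standard errors also hold the spread between libraries. The scripts were tested on simulated data. The 2 features left out by name are not reported here. Python 3.11.15, pandas 2.3.3, numpy 2.4.6 and matplotlib 3.10.9 were used.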

Additional observations from a re-analysis of the deposited data

How the results depend on the processing

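The number of features chosen, 37, depends on the settings of the rule. It was 12 with an offset of 0.5, 76 with a minimum expected count of 5, 11 with a minimum of 30, 56 with TPM scaled by TMM factors, 158 with a limit of 1.5 times and 10 with a limit of 3 times. On expected counts without length, chosen after seeing the data, it was 22, of which 18 are among the 37. The features whose 3 WS libraries exceeded all 6 others, 19 of the 37, numbered 5, 50, 5, 29, 59 and 8 in the same order of settings, and 10 without length. With an offset of 0.01 there were 52 and 24. Without replicates 1, 2 or 3 in turn the rule gave 309 to 489 features, of which 248 to 395 separated, because it then asks for fewer comparisons. All 37 were kept each time, which is fixed in advance, since a feature that passes in all 3 numbers also passes with 1 left out. In RS against BS no member was called under any alternative. Over all features 0 were called as well, except 33 of 65727 with DESeq2 and 355 of 285309 with no filter. With no filter 33 members were tested. With all 9 libraries in one fit, 2 of 35 tested members had an unadjusted p under 0.05, against 0.81% of 78848 features. Both, TRINITY_DN170474_c4_g1 and TRINITY_GG_187668_c1_g1, passed the filter only through WS, where they are high by choice, so nothing is read from this count. Without single replicates 0 to 1 of the tested members had an unadjusted p under 0.05. The 1 was TRINITY_GG_187668_c1_g1 without BS replicate 2, among 20 members tested, against 1014 of 72949 features. The median log2 fold change was 0.04 with the replicate block, with 0 of 14 called, and -0.29 to 0.49 without single replicates. Paired by number, 1247 of 65727 features (1.9%) had an unadjusted p under 0.05 with the block and 0 were called.

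Of the 8 named fold changes, direction reversed in 16 of 88 refits, 14 of them on leaving out a replicate. With the block TRINITY_GG_132968_c26_g1 became -0.22 and TRINITY_DN161187_c1_g4 0.041. Without single replicates the log2 fold change ranged for TRINITY_GG_83952_c39_g1 from -1.24 to 1.61, for TRINITY_DN174533_c6_g2 from -0.30 to 0.55, for TRINITY_GG_132968_c26_g1 from -2.19 to 1.89, for TRINITY_DN172650_c1_g1 from -2.57 to 0.53, for TRINITY_DN158306_c0_g2 from -2.14 to 0.40, for TRINITY_DN161187_c1_g4 from -0.78 to 0.42 and for TRINITY_DN173217_c0_g1 from -1.28 to 0.89. None was called.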
